A study of Homo sapiens with 15 samples.

Results

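The mRNAs described here encode 10 enzymes of glycolysis and lactate formation: GPI, PFKP, ALDOA, TPI1, GAPDH, PGK1, PGAM1, ENO1, PKM and LDHA. They were chosen by gene symbol among 57500 genes counted per library, and all 10 were among the 16612 genes kept for testing. The question was whether the low share of GAPDH mRNA in mock, dsRNA and silvestrol pellets was common to the pathway. RNA came from cytosolic extract (CE) of U2OS cells, a human osteosarcoma line that the labels give as wild type, while the study's text names the condensates after YFP-G3BP1, a tagged stress granule protein. The input group was CE that had not been pelleted. In the other 4 groups, CE was held under in vitro translation conditions for 2 h and centrifuged, and the washed pellet was sequenced after poly(A) selection. No reaction time is given for input, so effects of the 2 h reaction, the centrifugation and the washes cannot be told apart. Mock reactions were untreated, dsRNA reactions held 250 nM double-stranded RNA (an activator of the kinase PKR, which represses translation), silvestrol reactions held 2 µg/ml of an inhibitor of the initiation helicase eIF4A, and PEG reactions held 1% polyethylene glycol, a macromolecular crowding agent. Each group had 3 biological replicates, which gave 15 libraries.

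Glycolysis splits glucose into pyruvate in the cytosol and yields ATP and NADH, and lactate dehydrogenase turns pyruvate into lactate to restore NAD+. Its enzymes are among the most abundant proteins of proliferating cells, and their mRNAs are short, stable and efficiently translated. GAPDH mRNA is widely used as a reference transcript and as an example of an mRNA that stays largely outside stress granules.

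Total counts ranged from 15341973 to 46939993 per library, and those of the PEG pellets (15341973 to 25675182) lay below those of the other pellets (32477292 to 45319526). Each member had between 2636 and 292159 counts in every library, so counting error was small beside the differences between replicates. Replicate 1 stood apart from replicates 2 and 3 in input, mock, dsRNA and silvestrol, where the chi-square statistic per degree of freedom between libraries was 67.9 to 99.8 for pairs with replicate 1 and 4.97 to 9.68 between replicates 2 and 3. In PEG it was 23.4 to 45.6 for the 3 pairs. Counts of calls are therefore given also for replicates 2 and 3 alone, an alternative chosen after the data had been seen. Of 7 osteosarcoma and mesenchymal markers 6 were kept, and COL1A2 fell below the filter. None of the 5 liver and 5 leukocyte markers was kept, with summed levels of at most 0.902 and 0.588 CPM, the counts scaled to a common library total. Of 5 epithelial markers 3 were kept, and their summed CPM was 716 to 965 in input, 468 to 621 in mock, dsRNA and silvestrol pellets and 1454 to 1789 in PEG pellets. These markers thus moved in the same direction as the glycolytic mRNAs, and their part in the results was not tested.

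Together the 10 mRNAs took 1.41% ± 0.108 (SD, n = 3) of all counts in input. The share was 0.825% ± 0.142 in mock, 0.795% ± 0.138 in dsRNA and 0.812% ± 0.101 in silvestrol pellets, and 2.00% ± 0.0658 in PEG pellets. The highest of the 9 mock, dsRNA and silvestrol libraries, at 0.988%, lay below the lowest input library, at 1.33%, and the lowest PEG library, at 1.92%, lay above the highest input library, at 1.53%. The exact permutation test over samples, two-sided, cannot go below p = 0.1 with 3 libraries against 3. GAPDH alone made up 43.1 to 46.0% of the members' counts in input, 32.3 to 39.5% in mock, dsRNA and silvestrol pellets and 48.5 to 55.3% in PEG pellets. The mitochondrially encoded mRNAs took 0.363 to 0.465% of counts in input, 0.945 to 1.42% in mock, dsRNA and silvestrol pellets and 0.465 to 0.708% in PEG pellets, and their part in the members' values was not tested. All values are shares of a library, so less of an mRNA in a pellet and more of the other mRNAs cannot be told apart.

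In the values that follow, levels are CPM normalised over all 15 libraries by TMM, each set of 3 is in the order of replicates 1, 2 and 3, and positions are on GRCh38. Fold changes are log2 values with their standard errors (SE) from edgeR's quasi-likelihood test on the 6 libraries of a comparison, with Benjamini-Hochberg adjustment over 16612 genes, and a gene was called at an adjusted p under 0.05.

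**Figure D1:**
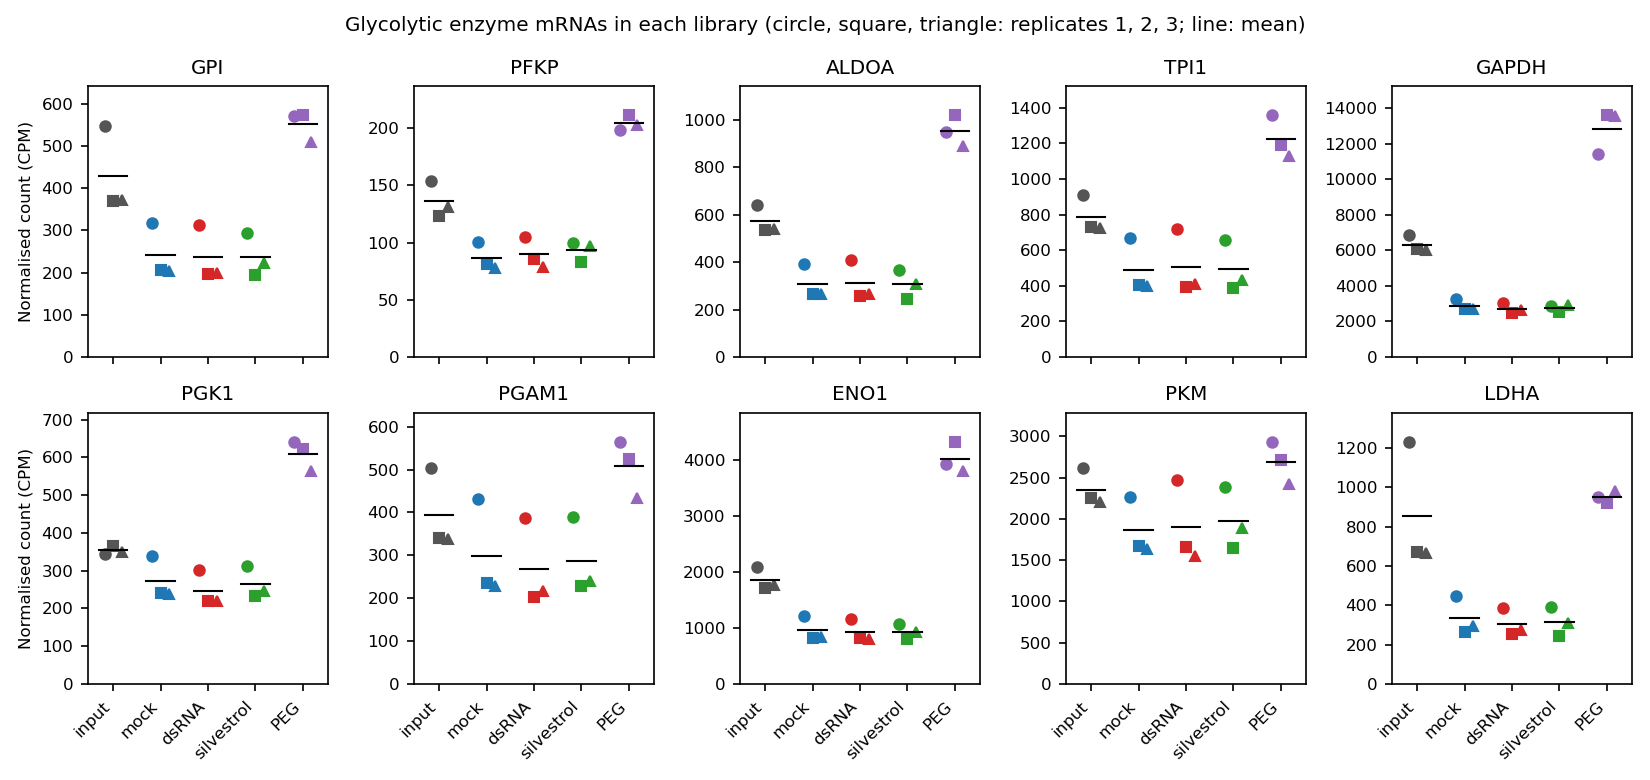
Normalised count (CPM, linear axes that start at 0) of the 10 glycolytic mRNAs in each of the 15 libraries, in pathway order, with a line at the mean of each group. In every panel the PEG mean is the highest of the 5 groups, and replicate 1 (circles) is the highest library of mock and dsRNA for all 10 mRNAs.

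GPI mRNA (ENSG00000105220, chr19:34359480-34402156, plus strand) encodes the isomerase that turns glucose phosphate into fructose phosphate. It stood at 547, 369.5 and 373 CPM in input, at 317, 206 and 205 in mock, at 313, 198 and 199.8 with dsRNA, at 294, 194 and 223 with silvestrol and at 573, 574 and 511 with PEG. Each mock, dsRNA and silvestrol library lay below every input library, whereas PEG overlapped input. PFKP mRNA (ENSG00000067057, chr10:3066333-3137712, plus strand) encodes the platelet-type subunit of phosphofructokinase, the committed and regulated step. It was the least abundant member, at 154, 123 and 131 CPM in input, 101, 81.2 and 77.4 in mock, 105, 85.8 and 78.6 with dsRNA, 99.3, 82.8 and 97.2 with silvestrol and 198, 211 and 203 with PEG. Here too the mock, dsRNA and silvestrol libraries all lay below input, and the PEG libraries all lay above it.

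ALDOA mRNA (ENSG00000149925, chr16:30053090-30070457, plus strand) encodes aldolase A, which splits fructose bisphosphate into triose phosphates. Its levels were 643, 534 and 540.5 CPM in input, 394, 264 and 266 in mock, 409, 256 and 266 with dsRNA, 368, 245 and 306 with silvestrol and 948, 1021 and 890.3 with PEG. TPI1 mRNA (ENSG00000111669, chr12:6867119-6870948, plus strand) encodes the isomerase that interconverts the triose phosphates. Its levels were 908, 727 and 727 CPM in input, 671, 402 and 396 in mock, 721, 395 and 408 with dsRNA, 655, 390.1 and 433 with silvestrol and 1359, 1191 and 1129 with PEG. For both mRNAs neither the low pellets nor the PEG pellets overlapped input, but for TPI1 replicate 1 of mock, dsRNA and silvestrol came close to the lowest input library.

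GAPDH mRNA (ENSG00000111640, chr12:6533927-6538374, plus strand) encodes the dehydrogenase that oxidises glyceraldehyde phosphate and makes the NADH of the pathway. It was the most abundant member in every library, with 6834, 6049 and 6039 CPM in input, 3259, 2697 and 2691 in mock, 3039, 2487 and 2627 with dsRNA, 2839.7, 2529 and 2927 with silvestrol and 11395, 13608 and 13536 with PEG. The highest mock library, with 3259 CPM, stood far under the lowest input library, with 6039 CPM. PGK1 mRNA (ENSG00000102144, chrX:78065188-78129296, plus strand) encodes the kinase of the next step, which makes ATP. It was flat across input, at 345, 365 and 349.6 CPM, and stood at 339, 241 and 239 in mock, 302, 219 and 219 with dsRNA, 311, 234 and 245 with silvestrol and 641, 622 and 563 with PEG. Replicate 1 of mock, at 339 CPM, lay just under the lowest input library, at 345 CPM, so mock and input were separated only narrowly, while PEG lay far above.

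PGAM1 mRNA (ENSG00000171314, chr10:97426160-97433441, plus strand) encodes the mutase that moves the phosphate of phosphoglycerate. Its levels were 505, 341 and 337 CPM in input, 431, 236 and 229 in mock, 387, 203 and 217 with dsRNA, 389.8, 228 and 241 with silvestrol and 565, 524 and 435 with PEG, and every pellet overlapped input. ENO1 mRNA (ENSG00000074800, chr1:8861002-8879249, minus strand) encodes enolase, which forms phosphoenolpyruvate. It stood at 2088, 1716 and 1767 CPM in input, 1219.8, 826 and 834 in mock, 1151, 823 and 802 with dsRNA, 1065, 807 and 929 with silvestrol and 3935, 4319.5 and 3802 with PEG. None of the pellets overlapped input for ENO1.

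PKM mRNA (ENSG00000067225, chr15:72199029-72231822, minus strand) encodes pyruvate kinase, which makes the second ATP of the lower pathway. Its levels were 2610.2, 2249 and 2201 CPM in input, 2269, 1674 and 1634 in mock, 2476, 1659 and 1555 with dsRNA, 2389, 1644 and 1884 with silvestrol and 2931, 2707 and 2417 with PEG. Replicate 1 of mock, dsRNA and silvestrol and replicate 3 of PEG lay inside the input range, so no pellet was separated from input. LDHA mRNA (ENSG00000134333, chr11:18394388-18408425, plus strand) encodes the muscle-type subunit of lactate dehydrogenase. It stood at 1229.9, 669 and 665 CPM in input, 448, 263 and 292 in mock, 386, 253 and 275 with dsRNA, 391, 246 and 311 with silvestrol and 948, 919 and 979.6 with PEG. The low pellets lay well below input, and the PEG libraries lay inside the input range because replicate 1 of input was high.

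On the scale of CPM per kilobase of the principal transcript, the order of levels in input was GAPDH (3364 ± 243), ENO1 (1043 ± 113), PKM (866 ± 82.4), TPI1 (639.7 ± 85.1), ALDOA (357 ± 38), LDHA (354 ± 134), PGAM1 (215 ± 52.2), GPI (211 ± 49.9), PGK1 (72.3 ± 2.18) and PFKP (51.2 ± 6.05), as mean ± SD of n = 3. The neighbours ALDOA and LDHA, LDHA and PGAM1, and PGAM1 and GPI overlapped, and the other neighbours did not. In mock and dsRNA pellets PKM stood above ENO1, with overlapping libraries, and with silvestrol it did so without overlap (726 ± 140 against 524 ± 72.2), whereas with PEG ENO1 (2256 ± 151) stood above PKM (988 ± 94.8). These orders depend on the length used: with the summed length of all annotated exons ENO1 stayed above PKM in all 5 groups.

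In mock pellets all 10 mRNAs had a lower mean than in input, and 6 of the 10 were called lower, against 15.8% of all genes. GAPDH, whose low share framed the question, is among those called, and its own call says nothing on the rest of the pathway. This also holds for the counts of members with dsRNA and silvestrol. GAPDH fell by 1.10 on the log2 scale (SE 0.141, adjusted p = 0.0036, edgeR quasi-likelihood test), which is 2.14-fold lower, and 0.831% of genes had a lower log2 fold change. LDHA fell by 1.32 (SE 0.304, adjusted p = 0.0157), with 0.229% of genes lower, and ENO1 fell by 0.92 (SE 0.187, adjusted p = 0.0106). ALDOA fell by 0.86 (SE 0.187, adjusted p = 0.0129), GPI fell by 0.79 (SE 0.232, adjusted p = 0.0351) and PFKP fell by 0.62 (SE 0.146, adjusted p = 0.0169). The other members did not pass the test: the log2 fold change was -0.65 for TPI1 (adjusted p = 0.0614), -0.37 for PGAM1 (adjusted p = 0.348), -0.34 for PGK1 (adjusted p = 0.14) and -0.31 for PKM (adjusted p = 0.196). With the replicate number as a block all 10 were called lower (30.1% of all genes and 72% of those with a log2 CPM of at least 8 and a principal transcript under 3000 nt), with adjusted p = 2.6e-06 for TPI1, 0.000489 for PGAM1, 0.00392 for PGK1 and 0.00515 for PKM. The mock and input libraries did not overlap for 8 of the 10, against 26% of all genes, with PKM and PGAM1 as the exceptions.

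The count in mock rested on which libraries entered. With replicates 2 and 3 alone all 10 were called lower, against 30.6% of all genes and 74% of the abundant short ones. Without mock replicate 1 the count was also 10 (17.2% of all genes), without mock replicate 2 it was 2 (7.4% of all genes) and without mock replicate 3 it was 1 (6.12% of all genes), so the calls over all genes fell as well. The sign of the log2 fold change was negative for all 10 in each of these fits.

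Abundant and short mRNAs were called lower more often than genes at large, and they give a closer background for 8 of the 10 members. PGK1 is longer and PFKP less abundant than the limits that define this set. Where the log2 CPM, averaged over the comparison, was at least 8, 33.3% of genes were called lower in mock. Among those with a principal transcript under 3000 nt in addition, a limit set after the data had been seen, 48.5% of 342 genes were called lower and the median log2 fold change was -0.51. Of the 8 members inside the set 5 were called lower in mock, 5 with dsRNA, 6 with silvestrol and 4 higher with PEG, with a median log2 fold change of -0.82 in mock and 0.54 in PEG. The median of all 10 members in mock was -0.72, with a median over all genes of 0.0012. The difference of the members from abundant short mRNAs was not tested.

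With dsRNA, 7 of the 10 were called lower, against 19.6% of all genes, 37.1% of genes with a log2 CPM of at least 8 and 54.4% of the abundant short ones. These were LDHA (log2 fold change -1.45, SE 0.281, adjusted p = 0.00607, edgeR), GAPDH (-1.17, SE 0.142, adjusted p = 0.00244), ENO1 (-0.96, SE 0.179), ALDOA (-0.84, SE 0.202), GPI (-0.82, SE 0.235), PFKP (-0.56, SE 0.152) and PGK1 (-0.48, SE 0.156, adjusted p = 0.0406). TPI1 (-0.59, adjusted p = 0.0875), PGAM1 (-0.51, adjusted p = 0.174) and PKM (-0.27, adjusted p = 0.307) did not pass, and with the replicate block (29.1% of all genes and 68.9% of the abundant short ones) they did, at adjusted p = 0.00177, 0.00172 and 0.0414. The dsRNA and input libraries did not overlap for 8 of the 10, against 28.9% of all genes. The count was 10 with replicates 2 and 3 alone (33.2% of all genes, 75.7% of the abundant short ones) and 3 without dsRNA replicate 2 or without dsRNA replicate 3 (11.8% and 11.9% of all genes).

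With silvestrol, 7 of the 10 were called lower as well, against 18.1% of all genes, 34.3% of genes with a log2 CPM of at least 8 and 50.9% of the abundant short ones. These were LDHA (log2 fold change -1.41, SE 0.284, adjusted p = 0.00759, edgeR), GAPDH (-1.16, SE 0.154, adjusted p = 0.00256), ENO1 (-0.96, SE 0.163), ALDOA (-0.87, SE 0.176), GPI (-0.83, SE 0.215), TPI1 (-0.64, SE 0.216, adjusted p = 0.0475) and PFKP (-0.51, SE 0.134). PGK1 (-0.39, adjusted p = 0.0621), PGAM1 (-0.43, adjusted p = 0.21) and PKM (-0.22, adjusted p = 0.358) did not pass. With the replicate block (28.7% of all genes and 66.7% of the abundant short ones) PGK1 (adjusted p = 0.0112) and PGAM1 (adjusted p = 0.00307) passed and PKM did not (adjusted p = 0.125). The silvestrol and input libraries did not overlap for 8 of the 10, against 27.8% of all genes. The count was 10 with replicates 2 and 3 alone (31.9% of all genes, 71.6% of the abundant short ones) and 4 without silvestrol replicate 2 or without silvestrol replicate 3 (10.3% and 11.1% of all genes).

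The mock, dsRNA and silvestrol comparisons share the 3 input libraries, so their likeness is not independent. Set directly against mock, dsRNA pellets differed by -0.16 (PGAM1) to 0.05 (PFKP) on the log2 scale, with SE of 0.137 (GAPDH) to 0.327 (PGAM1), and 0 of the 10 were called in either direction. Silvestrol pellets differed from mock by -0.08 (LDHA) to 0.11 (PFKP), with SE of 0.127 (PFKP) to 0.303 (PGAM1), and again 0 of the 10 were called. In both comparisons 0 of the 10 had an unadjusted p under 0.05, and DESeq2 also called 0 of the 10. Over all genes edgeR called 0% in these comparisons, with 374 genes at an unadjusted p under 0.05 for dsRNA and 35 for silvestrol, and DESeq2 called 64 and 0 genes. With the replicate block edgeR called 441 genes lower and 25 higher with dsRNA (2.65% and 0.15%) and 0 lower and 2 higher with silvestrol (0% and 0.012%). None of the 10 members was called with the block in either comparison, with adjusted p of 0.252 or more for dsRNA, lowest for PGAM1, and of 0.796 or more for silvestrol, lowest for PFKP. Within same-numbered libraries 6 of the 10 (GAPDH, GPI, PGK1, PGAM1, ENO1 and LDHA) were lower with dsRNA than with mock in all 3 pairs, against 16.9% of all genes. PFKP was higher in all 3, as were 17.9% of all genes. Among the 6 the differences ran from -0.0063 (ENO1, replicate 2) to -0.22 (PGAM1, replicate 2) on the log2 scale. The share of abundant short mRNAs lower in all 3 pairs was not computed, so a closer background for the 6 is lacking. With silvestrol 0 of the 10 were lower and 0 higher in all 3 pairs, against 13.4% and 14.3% of all genes. The libraries overlapped for all 10 members in both comparisons, while 4.44% of all genes were lower and 2.17% higher without overlap with dsRNA, and 1.85% and 1.57% with silvestrol. The GAPDH levels of the 3 groups, at 2882 ± 326, 2718 ± 287 and 2765 ± 209 CPM, overlapped library by library.

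**Figure D2:**
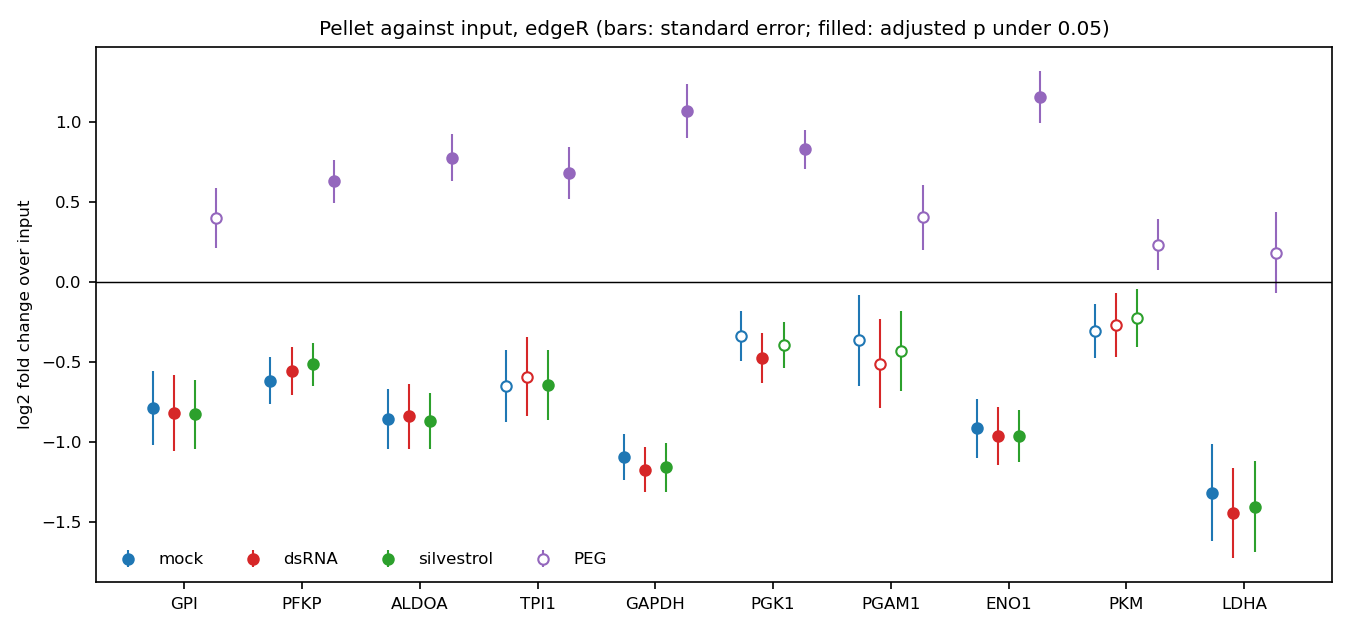
log2 fold change of each glycolytic mRNA in the 4 kinds of pellet against input (points, bars of 1 SE from edgeR, filled where the adjusted p was under 0.05). The mock, dsRNA and silvestrol points are all below 0, from -0.22 for PKM with silvestrol to -1.45 for LDHA with dsRNA, and the PEG points are all above 0, from 0.18 for LDHA to 1.16 for ENO1.

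PEG pellets differed from input in the other direction. All 10 mRNAs had a positive log2 fold change and 6 of the 10 were called higher, against 25.5% of all genes, 59.6% of genes with a log2 CPM of at least 8 and 72.3% of the 419 abundant short ones. ENO1 rose by 1.16 on the log2 scale (SE 0.162, adjusted p = 0.000726, edgeR quasi-likelihood test) and GAPDH by 1.07 (SE 0.169, adjusted p = 0.00119), or 2.23-fold and 2.10-fold. PGK1 rose by 0.83 (SE 0.121), ALDOA by 0.78 (SE 0.146), TPI1 by 0.68 (SE 0.162) and PFKP by 0.63 (SE 0.135), each with libraries that did not overlap input. The values for the other members were 0.40 for PGAM1 (adjusted p = 0.124), 0.40 for GPI (adjusted p = 0.106), 0.23 for PKM (adjusted p = 0.251) and 0.18 for LDHA (adjusted p = 0.566). With the replicate block PGAM1 (adjusted p = 0.0338) and GPI (adjusted p = 0.0456) were called as well, against 28% of all genes and 75.9% of the abundant short ones. The median of the 8 members inside that set, 0.54, lay under the 0.85 of all its genes. PEG and input libraries did not overlap for the 6 called mRNAs, against 28.7% of all genes.

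Leaving out input replicate 1, which held the most LDHA, gave 9 of the 10 called higher (31.3% of all genes), and replicates 2 and 3 alone gave all 10 (34.9% of all genes, 87.4% of the abundant short ones). Scaling mattered in PEG. With library size in place of TMM the median over all genes of the log2 fold change moved from -0.0096 to -0.36, and the calls over all genes from 4228 higher and 4307 lower to 2337 higher and 6890 lower. Under that scaling 5 of the 10 members were called higher, and LDHA (-0.14) and PKM (-0.10) turned to the other sign.

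Against mock, all 10 mRNAs were called higher in PEG pellets, against 31.3% of all genes, 63.4% of genes with a log2 CPM of at least 8 and 82% of the abundant short ones. GAPDH differed by 2.23 on the log2 scale (SE 0.184, 4.68-fold, adjusted p = 9.6e-06, edgeR) and ENO1 by 2.13 (SE 0.202, 4.39-fold). ALDOA (1.70), LDHA (1.57), TPI1 (1.39), PFKP (1.31), GPI (1.26) and PGK1 (1.23) were intermediate. PGAM1 (0.83, SE 0.248) and PKM (0.60, SE 0.184, adjusted p = 0.0162) differed least. No library of the 2 groups overlapped for any of the 10, against 32% of all genes. With library size as the scaling the median of all genes moved from -0.032 to -0.50, the calls over all genes from 5207 higher and 5350 lower to 3118 higher and 8272 lower, and 8 of the 10 members were called higher.

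Whether the rest of the pathway shifted as much as GAPDH was read from ratios within a library. The log2 ratio of each mRNA's counts to the GAPDH counts of the same library needs no scaling between libraries. In mock pellets the ratio was higher than in input without overlap for 7 of the 9 other members, against 84.5% of all other genes, so a higher ratio to GAPDH was common to most genes measured. It was lower without overlap for 0 of the 9, against 0.0662% of all other genes. The rise was 0.78 for PKM (from -1.42 ± 0.034 in input to -0.64 ± 0.106 in mock), 0.74 for PGK1, 0.69 for PGAM1, 0.48 for PFKP, 0.41 for TPI1, 0.22 for ALDOA and 0.16 for ENO1. GPI (0.30) and LDHA (-0.20) overlapped input, and LDHA was the member whose ratio to GAPDH had a negative mean difference. Within same-numbered libraries the ratio was higher in all 3 pairs for 8 of the 9, GPI included (0.28, 0.33 and 0.30), against 95.3% of all genes that are no members, and that of LDHA was lower in all 3 (-0.39, -0.18 and -0.019).

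The ratio was higher without overlap for 6 of the 9 with dsRNA, against 85% of all other genes, where ENO1 also overlapped, and for 7 of the 9 with silvestrol, against 86.2%. PKM moved by 0.88 and 0.92 and LDHA by -0.23 and -0.21 in these pellets. In PEG pellets the ratio was lower without overlap for 7 of the 9, against 73.3% of all other genes. PKM (-0.83) and LDHA (-0.81) moved most, GPI and PGAM1 by -0.64 each, and PGK1 (-0.24) and ENO1 (0.09) overlapped input. In the two-sided exact permutation test over samples each ratio without overlap had p = 0.1, the smallest that 3 against 3 libraries allow, and 0.133 after Benjamini-Hochberg adjustment over 36 tests, so none of them passed.

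**Figure D3:**
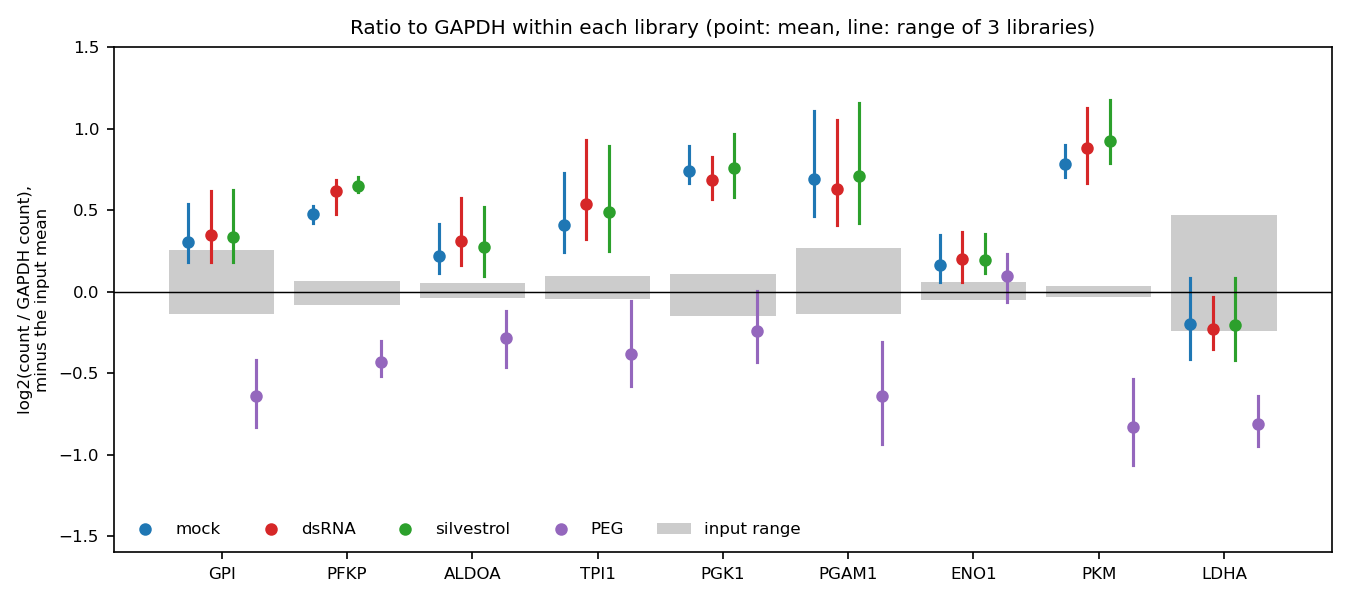
Ratio of each glycolytic mRNA to GAPDH in the same library, as log2 with the input mean set to 0 (points are means, lines the range of 3 libraries, grey boxes the range of the input libraries). PKM has the largest shift from input in both directions, at 0.92 with silvestrol and -0.83 with PEG, and the LDHA ranges of mock, dsRNA and silvestrol reach into the input box.

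The members are short next to the other mRNAs measured. The principal transcripts, taken from GENCODE release 29, were 1231 nt long for TPI1, 1603 for ALDOA, 1781 for ENO1, 1830 for PGAM1, 1875 for GAPDH, 2040 for GPI, 2416 for LDHA, 2654 for PFKP, 2717 for PKM and 4887 for PGK1. Of the 10, 9 were shorter than the median of the genes kept (3130 nt), with PGK1 as the exception, most of whose transcript (3636 nt) lies outside the coding sequence. Genes of like length gave a second background, where length is that of the chosen transcript, and the forms expressed in these cells were not measured. In mock pellets 8 of the 10 members lay below the lower quartile of their length bin, with 7 of the 10 for both dsRNA and silvestrol, and PKM and PGAM1 lay between the quartiles in all 3. LDHA stood furthest out, at -1.32 in mock where genes of 2000 to 3000 nt had quartiles of -0.41 and 0.44.

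In PEG pellets 4 of the 10 lay above the upper quartile of their length bin. PGK1 was furthest from its bin, with a log2 fold change of 0.83 where genes of 4000 to 6000 nt had a median of -0.45 and quartiles of -0.78 and -0.08. ENO1 (1.16) and GAPDH (1.07) lay above the upper quartile of 0.85 for 1500 to 2000 nt, and PFKP (0.63) above the 0.55 for 2000 to 3000 nt. TPI1, the shortest, lay at 0.68 near its bin median of 0.76, and LDHA at 0.18 on its bin median of 0.18. Over the 10 members Spearman's rho between transcript length and log2 fold change was 0.43 in mock, dsRNA and silvestrol and -0.35 in PEG, which is a description over 10 genes that share libraries and depth.

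**Figure D4:**
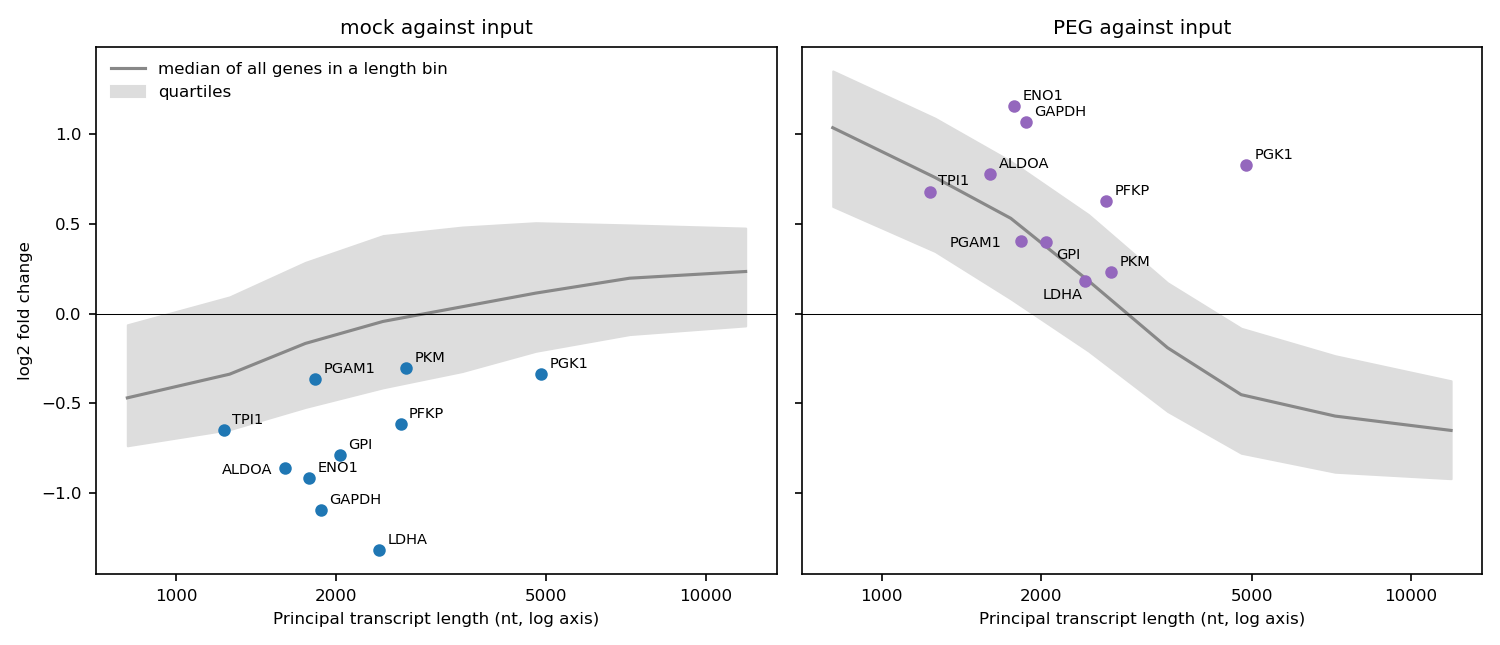
log2 fold change of the 10 glycolytic mRNAs against the length of the principal transcript (nt, log axis) in mock (left) and PEG (right), over the median (line) and quartiles (grey band) of all genes in bins of length. In mock LDHA is the lowest point at -1.32 under a bin median of -0.04, and in PEG PGK1 is at 0.83 over a bin median of -0.45.

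Isozymes gave a comparison within a step of the pathway. Enolase is encoded by ENO1 and, as the neuronal form, by ENO2. The log2 ratio of ENO1 to ENO2, per length, was 3.98, 3.80 and 3.86 in the input libraries, 3.13, 2.57 and 2.59 in mock and 4.64, 4.73 and 4.54 with PEG, with no overlap of either pellet with input. ENO2 itself had a log2 fold change of 0.18 in mock (adjusted p = 0.197, edgeR) and rose by 0.40 in PEG (adjusted p = 0.0174). The phosphofructokinase subunits were compared in the same way. The log2 ratio of PFKP to the liver form PFKL was 0.49, 0.10 and 0.08 in input, -0.30, -0.74 and -0.85 in mock and 0.80, 0.84 and 0.94 with PEG, and that to the muscle form PFKM was 0.21 ± 0.217 in input, -0.42 ± 0.181 in mock and 0.69 ± 0.0342 with PEG (mean ± SD, n = 3). Neither PFKL (0.23 in mock, 0.0041 in PEG) nor PFKM (0.011 and 0.16) passed the test, though PFKL was called higher in mock with the replicate block (adjusted p = 0.0186, edgeR), and signs of both turned with the GC offset, the scaling or the filter.

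For lactate dehydrogenase and aldolase the groups overlapped in mock, dsRNA and silvestrol. LDHB, the heart-type subunit, fell by 0.73 in mock (adjusted p = 0.0073, edgeR) and rose by 0.95 in PEG (adjusted p = 0.0017). The log2 ratio of LDHA to LDHB was -1.39, -1.98 and -2.01 in input and -1.93, -2.75 and -2.43 in mock, which overlapped, and -2.34, -2.61 and -2.52 with PEG, which lay below input. Within same-numbered libraries it was lower in mock than in input by all 3 differences (-0.53, -0.76 and -0.42), and also in all 3 pairs with dsRNA and with silvestrol. ALDOC, the brain-type aldolase, fell by 0.38 in mock (adjusted p = 0.026) and rose by 0.82 in PEG (adjusted p = 0.000839), and the ratio of ALDOA to ALDOC overlapped input in all 4 pellets. Within same-numbered libraries that ratio was lower in mock in all 3 pairs (-0.35, -0.55 and -0.61), likewise with dsRNA and silvestrol, and in PEG it was lower in 1 pair and higher in 2. These ratios are given as values, with no test.

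Beyond the 10 members, 5 lists of linked genes held 89 genes, of which 76 were kept. In mock 29 of the 76 were called lower and 5 higher (15.8% and 17.6% of all genes), and in PEG 13 were called lower and 27 higher (25.9% and 25.5% of all genes). With dsRNA 34 were lower and 9 higher (19.6% and 21.1%), and with silvestrol 32 and 7 (18.1% and 19.4%). The citric acid cycle and pyruvate dehydrogenase complex, which burn pyruvate in mitochondria, had 12 of 21 genes called lower and 0 higher in mock, with a median log2 fold change of -0.62, and 10 higher and 3 lower in PEG. The pentose phosphate pathway, which draws on glucose phosphate for NADPH and ribose, had 5 of 10 lower and 0 higher in mock (median -0.55) and 5 higher and 1 lower in PEG. In it PGD fell by 0.61 in mock (adjusted p = 0.0114, edgeR) and rose by 0.42 in PEG (adjusted p = 0.0262).

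The other lists were mixed. Of all genes 15.8% were called lower and 17.6% higher in mock, and 25.9% and 25.5% in PEG. Other glycolytic enzymes and isozymes had 6 of 15 called lower and 2 higher in mock and 6 higher and 1 lower in PEG. BPGM, the mutase that makes bisphosphoglycerate, fell by 0.85 in mock (adjusted p = 0.0048, edgeR) and had -0.25 in PEG (adjusted p = 0.118). HK2, the inducible hexokinase, rose by 0.64 in mock (adjusted p = 0.0125) and fell by 0.64 in PEG (adjusted p = 0.0147), while HK1 had -0.33 (adjusted p = 0.153; 0.00126 with the block) and -0.03. Regulators and transporters had 3 of 19 lower and 2 higher in mock and 7 lower and 3 higher in PEG. Their count of lower genes in mock was at the share of all genes. PFKFB3, which makes the activator of phosphofructokinase, rose by 0.66 in mock (adjusted p = 0.0326) and fell by 0.46 in PEG (adjusted p = 0.0401).

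Membrane transporters, whose mRNAs are translated at the endoplasmic reticulum, had values of both signs. The glucose transporter SLC2A1 rose by 0.50 in mock (adjusted p = 0.0101, edgeR) and by 0.43 in PEG (adjusted p = 0.011). The lactate transporter SLC16A3 had 0.61 in mock (adjusted p = 0.0753; 7.2e-05 with the block) and rose by 0.84 in PEG (adjusted p = 0.013), and SLC16A1 had -0.10 in mock and fell by 0.44 in PEG (adjusted p = 0.0116). Gluconeogenesis and glycogen genes had 3 of 11 lower and 1 higher in mock (15.8% and 17.6% of all genes) and 3 higher and 1 lower in PEG (25.5% and 25.9% of all genes).

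**Figure D5:**
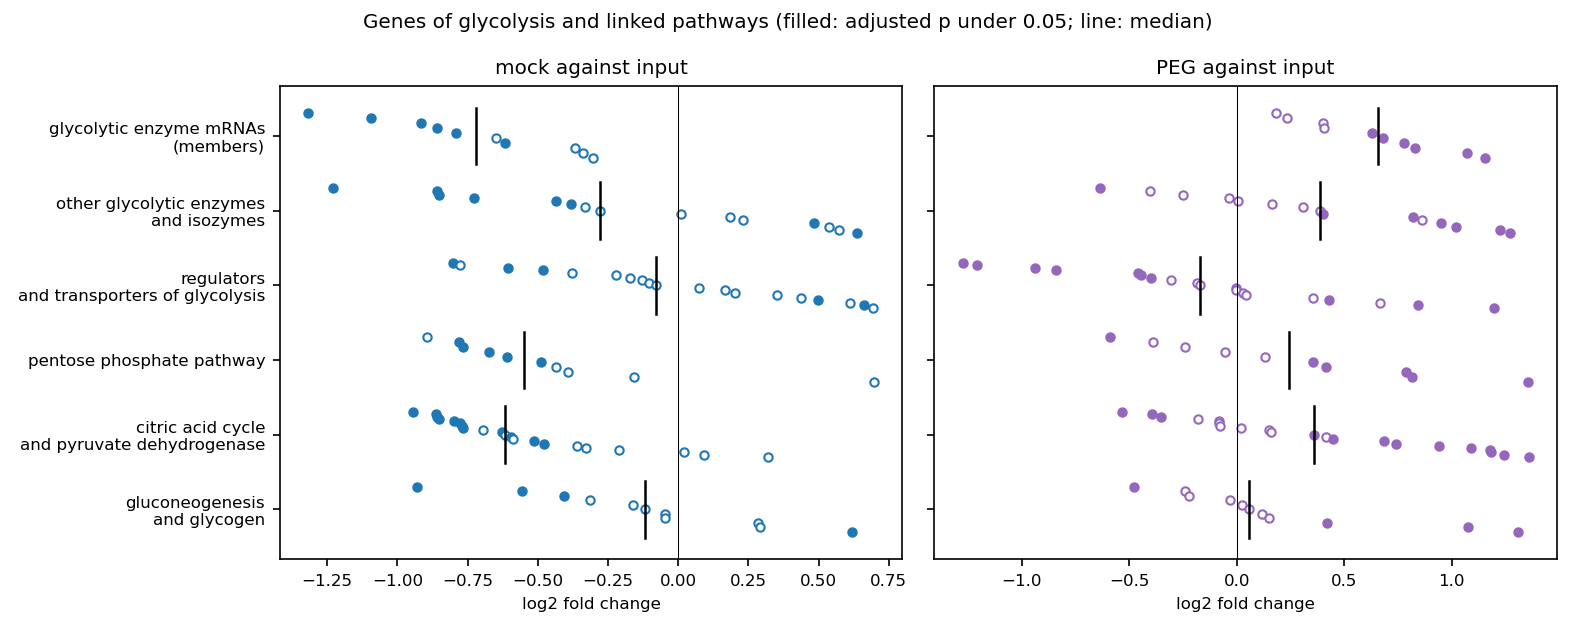
log2 fold change of the glycolytic mRNAs and of the kept genes of 5 linked lists in mock (left) and PEG (right) against input (filled where the edgeR adjusted p was under 0.05, line at the median). The members' medians are -0.72 and 0.66, and the regulators and transporters spread on both sides of 0 with medians of -0.08 and -0.17.

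Counts assigned to the members' named pseudogenes were few beside the members' own. Of the members 6 share exon sequence with 1 other annotated gene each, of which SPSB2 at TPI1 (14 nt) had more than 100 counts in all libraries together. The named processed pseudogenes of the members, 65 of them for GAPDH, held at most 0.798% of a member's counts in any library, which was for TPI1, and 0.0806 to 0.187% for GAPDH. How the counting treated reads that match several places is not given in the sources used here, so these counts cannot show how many reads were shared.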

How the data were processed

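Poly(A) RNA of U2OS extract and pellets was sequenced in 15 libraries. Each file deposited by the authors holds unnormalised counts of reads for every gene, beside gene coordinates and a summed exon length. The submitters' processing notes name Trimmomatic 0.36, STAR 2.5.2b, featureCounts of Subread 1.5.2 and GRCh38. The strand setting, the annotation release and the treatment of multi-mapping reads are not given in the sources used here. Of 57500 gene identifiers 56898 were found in GENCODE release 29, 54773 of them with the same start and end, and transcript lengths were taken from there. Symbols came from a separate reference of gene names, and from GENCODE release 29 where that had none. The principal transcript is one tagged as principal by APPRIS. Where several were tagged, the best transcript support level decided, then the longest coding sequence, then the longest transcript. Which transcripts these cells expressed was not measured.

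A gene was kept if, in every one of the 5 groups, 2 or more replicates had 10 or more counts. Each of 7 comparisons was fitted on its 6 libraries with edgeR 4.0.16 (TMM, quasi-likelihood F test, prior count 2) in R 4.3.3, with Benjamini-Hochberg adjustment over all genes kept and a threshold of 0.05, after a test on simulated data. The study's methods name DESeq2, and DESeq2 1.42.0 was run as an alternative. The others were DESeq2 size factors, library size only, other filters, all groups in 1 fit, a replicate block, a GC offset (lowess span 0.3), the block with the GC offset, each library left out in turn and, chosen after the data had been seen, replicates 2 and 3 alone. The replicate numbers in the labels were taken to pair the libraries. Deviations from group means correlated at 0.131 to 0.861 between same-numbered libraries and at -0.746 to 0.583 between others. These correlations set replicate 1 apart, but they did not always tell replicates 2 and 3 apart. Input 2 correlated at 0.583 with both mock 2 and mock 3, and dsRNA 2 at 0.132 with PEG 2 and 0.139 with PEG 3. The pairing of replicates 2 and 3 therefore rests on the labels. Python 3.11.15, scipy 1.17.1 and matplotlib 3.10.9 were used for ratios, exact tests and plots.

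The members and gene lists were chosen with earlier results of these data known. All 10 members were named in each comparison, with HK1, HK2, PFKL, PFKM, ALDOC, ENO2, LDHB, BPGM, PFKFB3, SLC2A1, SLC16A1, SLC16A3 and PGD of the linked lists and the 5 genes, no members, of average log2 CPM 3 or more that correlated best with the members over the 15 libraries. Nuclear-retained lncRNAs (MALAT1, NEAT1) were measured and 0 of 2 were called in mock, dsRNA or silvestrol pellets, with 1 lower and 1 higher in PEG. The smallest exact permutation p that 3 against 3 libraries allow is 0.1. The edgeR p-values set the difference between groups against the spread between these biological replicates. In the main fits, which had no block, that spread includes the differences between replicate numbers. Totals per library were 15341973 to 46939993 counts. Protein sequences and RNA integrity were not analysed here, and 1 gene that the naming rule covers is not reported here by itself.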

Additional observations from a re-analysis of the deposited data

Results flagged for a closer look

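For 4 members, the change against input was called in opposite directions in mock and in PEG pellets. That choice fixes the direction of PEG against mock, so the adjusted p below (edgeR's quasi-likelihood test) is no further support. All 10 members were called higher in PEG than in mock, against 31.3% of all genes and 82% of the abundant short ones. GAPDH was lower in mock and higher with PEG, and PEG and mock differed by 2.23 on the log2 scale (adjusted p = 9.6e-06). ENO1 differed by 2.13 (adjusted p = 1.8e-05), ALDOA by 1.70 (adjusted p = 4.2e-05) and PFKP by 1.31 (adjusted p = 3.2e-05). All 3 PEG libraries lay above all 3 mock libraries for each of the 4, as they did for the other 6 members. Of all genes 6.26% were called lower in mock and higher in PEG. Of 315 genes with a principal transcript under 3000 nt and a log2 CPM of at least 8 in both comparisons 35.9% were. The 4 of 10 members are close to that share among abundant short mRNAs, but PFKP, 1 of the 4, and PGK1 lie outside that set. Both comparisons share the 3 input libraries.

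The PEG libraries had the lowest totals of the pellets, and the share of mitochondrially encoded mRNAs and of epithelial marker mRNAs also differed between PEG and mock, as given above. Their part in these differences was not tested.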

How the results depend on the processing

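The sign of each member's log2 fold change against input was kept in mock, dsRNA and silvestrol under all alternatives run, and in PEG under all but library size only, where PKM (-0.10) and LDHA (-0.14) turned. With the replicate block the members called lower in mock went from 6 to 10, beside 15.8% and 30.1% of all genes, and the block lost no call of a member. With replicates 2 and 3 alone the members called were 10 lower in mock and 10 higher in PEG, beside 30.6% and 34.9% of all genes. Leaving out 1 library gave 1 to 10 members lower in mock, 3 to 10 with dsRNA and 4 to 9 with silvestrol. With the block and the GC offset PGK1 was not called lower in mock, dsRNA or silvestrol. The block added calls for HK1, PFKL and SLC16A3 in mock, and for members as given in the report. The causes were not tested.

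The calls over all genes moved as well under these settings. Linked genes called lower in mock went from 29 to 45 with the block and GC offset and to 46 with replicates 2 and 3 alone. Over all genes they went from 2625 to 4927 and 5086. Linked genes called higher in mock went from 5 to 9 with DESeq2, 17 with the block, 3 with the GC offset, 10 with both, 8 with all groups in 1 fit and 17 with replicates 2 and 3 alone. Over all genes they went from 2916 to 3309, 5404, 2191, 5153, 3251 and 5296 in that order. Linked genes called higher with dsRNA went from 9 to 16 with the block, 5 with the GC offset and 18 with replicates 2 and 3 alone. Over all genes they went from 3507 to 5147, 2703 and 5575. With silvestrol they went from 7 to 11 with DESeq2, 16 with the block, 2 with the GC offset and 18 with replicates 2 and 3 alone. Over all genes these went from 3225 to 3523, 5109, 2379 and 5462. In PEG linked genes called lower went from 13 to 25 with library size only, beside 4307 to 6890 over all genes. Linked genes called higher in PEG went from 27 to 41 with replicates 2 and 3 alone, beside 4228 to 5790 over all genes. Leaving out 1 library gave 12 to 36 linked genes lower and 1 to 7 higher in mock, 22 to 40 and 5 to 10 with dsRNA, and 19 to 35 and 2 to 7 with silvestrol. Over all genes it gave 1017 to 2854 lower and 1335 to 3068 higher in mock. The ranges over all genes were 1960 to 3419 and 2360 to 3498 with dsRNA, and 1711 to 3283 and 2148 to 3180 with silvestrol.

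Signs also turned for linked genes near 0. In mock PFKL was -0.30 with the GC offset and -0.29 with the block added, SLC16A1 was 0.068 and 0.066, and PFKM was -0.0022 with DESeq2, -0.0021 with its size factors, -0.037 without a filter, -0.023 with the filter in at least 1 group, -0.019 with the GC offset and -0.019 with the block added, -0.024 with all groups in 1 fit, -0.031 with replicates 2 and 3 alone and -0.040 to 0.018 with 1 library left out. In PEG library size only gave -0.34 for PFKL and -0.18 for PFKM. PFKL was -0.081 without a filter, -0.36 with the GC offset and -0.36 with the block added, -0.043 with all groups in 1 fit, -0.035 with replicates 2 and 3 alone and -0.079 to 0.040 with 1 library left out. HK1 was 0.046 with replicates 2 and 3 alone and -0.11 to 0.092 with 1 library left out.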

Other observations

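Over the 15 libraries, the genes outside the 10 members whose log2 CPM followed the members' mean most closely were ILF2 (Pearson's r = 0.996), TUBG1 (0.995), ATP5F1B (0.994), MRPS18B (0.994) and XRCC6 (0.994). They encode a double-stranded RNA binding protein, gamma-tubulin, a subunit of the mitochondrial ATP synthase, a mitochondrial ribosomal protein and a subunit of the Ku complex. The members themselves correlated with their own mean at 0.903 (PKM) to 0.997 (ALDOA), with the member counted in that mean. The 15 libraries fall into 5 groups and share depth and replicate number, so these values describe likeness across the libraries only.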
